A study of Mus musculus with 9 samples.

Results

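The levels of 9 long noncoding genes were followed in RNA-seq of B cell subsets sorted from the spleens of wild-type C57BL6 mice. The genes were taken by symbol from the 24346 genes of the expression tables, and all 9 were found. They comprise 2 nuclear long noncoding RNAs, Malat1 and Neat1, and 7 genes whose introns carry small nucleolar RNAs (snoRNAs), Gas5, Snhg1, Snhg3, Snhg5, Snhg6, Snhg8 and Snhg12. Follicular (FO) B cells are the recirculating mature B cells of the spleen, and age-associated B cells (ABCs) are a subset that accumulates in old and autoimmune mice. There were 3 libraries each of FO B cells from mice of 8 weeks, "FO B (Young)", of FO B cells from mice of 50 weeks, "FO B (Aged)", and of ABCs from mice of 50 weeks, "ABCs (Aged)". No group carried a transgene, a deletion or a treatment, and young ABCs were not analysed here, so the effect of age within ABCs has no comparison. FO B cells were sorted as B220 high cells that lacked CD43, carried CD23 and had little CD21, whereas ABCs lacked both CD43 and CD23, had little CD21 and carried CD11b and CD11c.

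Malat1 and Neat1 are neighbouring, highly transcribed genes whose RNAs stay in the nucleus. Malat1 RNA gathers in nuclear speckles, the bodies rich in splicing factors, and Neat1 RNA is the scaffold around which paraspeckles assemble. The snoRNA host genes work in another way. Their introns are processed into snoRNAs, which guide the methylation or pseudouridylation of ribosomal RNA, and the spliced exons are left as an RNA without a conserved protein. Many of these spliced RNAs are degraded by nonsense-mediated decay when they are translated, and many begin with a 5′TOP tract, a C followed by pyrimidines at the start of the RNA that ties a transcript to growth signalling. Gas5 was first found as an RNA that builds up when cells stop growing.

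The starts of 4 host genes are shown because such a tract is read from the first bases of the RNA. These are the host genes with a window in which a run of C and T covered the annotated start. The windows of Snhg3 and Snhg5, not shown, had neither C nor T at the annotated start. Each line gives 40 bases before and 40 bases from the start annotated by RefSeq (GRCm38.p6), 5′ to 3′ on the gene's strand, with the unbroken run of C and T that covers the start in capitals. The Gas5 window is chr1:161035126-161035205 on the plus strand, the Snhg8 window chr3:123508297-123508376 on the minus strand, the Snhg12 window chr4:132308638-132308717 on the plus strand, and the Snhg1 window chr19:8723447-8723526 on the plus strand. The Malat1 window, chr19:5802633-5802712 on the minus strand, is given beside them as a gene that hosts no snoRNA.
Gas5: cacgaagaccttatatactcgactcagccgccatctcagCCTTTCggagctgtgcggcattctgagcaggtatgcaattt
Snhg8: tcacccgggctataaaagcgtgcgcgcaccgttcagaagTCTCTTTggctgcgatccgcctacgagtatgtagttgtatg
Snhg12: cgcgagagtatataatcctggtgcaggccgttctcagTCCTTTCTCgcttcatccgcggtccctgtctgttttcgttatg
Snhg1: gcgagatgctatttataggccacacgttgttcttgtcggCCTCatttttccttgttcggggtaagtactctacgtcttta
Malat1: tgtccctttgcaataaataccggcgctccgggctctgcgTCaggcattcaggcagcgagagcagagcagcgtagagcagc
A start with C followed by at least 4 C or T was found in 2 of the 8 windows that matched the genes, those of Gas5 and Snhg8, and in 2.51% of the 32851 promoters of the RefSeq table. In Snhg12 the run covered 9 bases but began 3 bases before the annotated start, so the count depends on where the annotation places the first base. Of the 9 genes 7 had a window, and Gas5 had a second one that began at another start and held no such run. No matched window was found for Neat1 or Snhg6.

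The snoRNAs inside the host genes show what the genes encode. In GENCODE M21 (GRCm38), 27 genes of the snoRNA class, between 60 and 205 bases long, lay inside the 7 host genes on the same strand when entries with overlapping spans (Snord80 and Snora16a are each annotated more than once) were counted as 1, with 9 in Gas5, 8 in Snhg1, 4 in Snhg12, 2 each in Snhg3 and Snhg5, and 1 each in Snhg6 and Snhg8. The following lines give a box C/D snoRNA of Gas5, Snhg5 and Snhg6, whole and on the strand of the host gene, from the GENCODE transcripts, with the box C motif TGATGA and the last box D motif CTGA in capitals. Snord47 is at chr1:161038082-161038158 in Gas5, Snord50a at chr9:88521529-88521600 in Snhg5, and Snord87 at chr1:9942463-9942549 in Snhg6.
Snord47: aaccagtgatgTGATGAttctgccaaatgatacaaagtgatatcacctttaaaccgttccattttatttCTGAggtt
Snord50a: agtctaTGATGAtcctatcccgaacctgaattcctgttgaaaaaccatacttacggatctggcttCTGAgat
Snord87: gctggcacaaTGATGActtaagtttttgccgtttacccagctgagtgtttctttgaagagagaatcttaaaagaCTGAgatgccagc
The libraries were made from oligo-dT primed cDNA, which is meant to read the spliced host RNA rather than the mature snoRNA. The expression tables held 8 of the 27 snoRNAs, of which 4, Snord47 and Snord87 among them, were listed at 0 in all 9 libraries. Snord47 and Snord87 are shorter than the single reads described in the paper's methods, so their 0 does not show what was captured. The other listed snoRNAs had values above 0 in some libraries, up to 1731 FPKM for Snord22. The values below are those listed for the host genes.

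All 9 genes were well expressed in B cells of each group, and the units below are FPKM, fragments scaled for transcript length and for the reads of the library. Malat1 was at 915.5 ± 45.1 FPKM (SD, n = 3) in FO B (Young), 811.6 ± 54.5 in FO B (Aged) and 770.01 ± 41.9 in ABCs (Aged). Its level exceeded that of 98.6% to 99.0% of the genes at 1 FPKM or more in each library. Gas5 and Snhg3 followed, with means between 87.3 and 134 FPKM, and their libraries overlapped within each group. Snhg12 had the lowest mean in all 3 groups, between 18.8 and 24.3 FPKM. Snhg8, Snhg1, Snhg6, Neat1 and Snhg5 lay between them in FO B (Young), in that order, where the libraries of Snhg1 and Snhg6 overlapped, as did those of Neat1 and Snhg5. Neat1 was at rank 7 in FO B (Young), at rank 8 in FO B (Aged) and at rank 4 in ABCs, where its libraries were above those of Snhg8. Snhg1 moved the other way, from rank 5 in FO B (Young) to rank 8 in ABCs, and in ABCs its libraries overlapped those of Snhg5 and Snhg12. Together the 9 genes held between 0.202% and 0.217% of the summed FPKM of a FO B (Young) library, between 0.189% and 0.196% in FO B (Aged) and between 0.157% and 0.170% in ABCs.

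**Figure D1:**
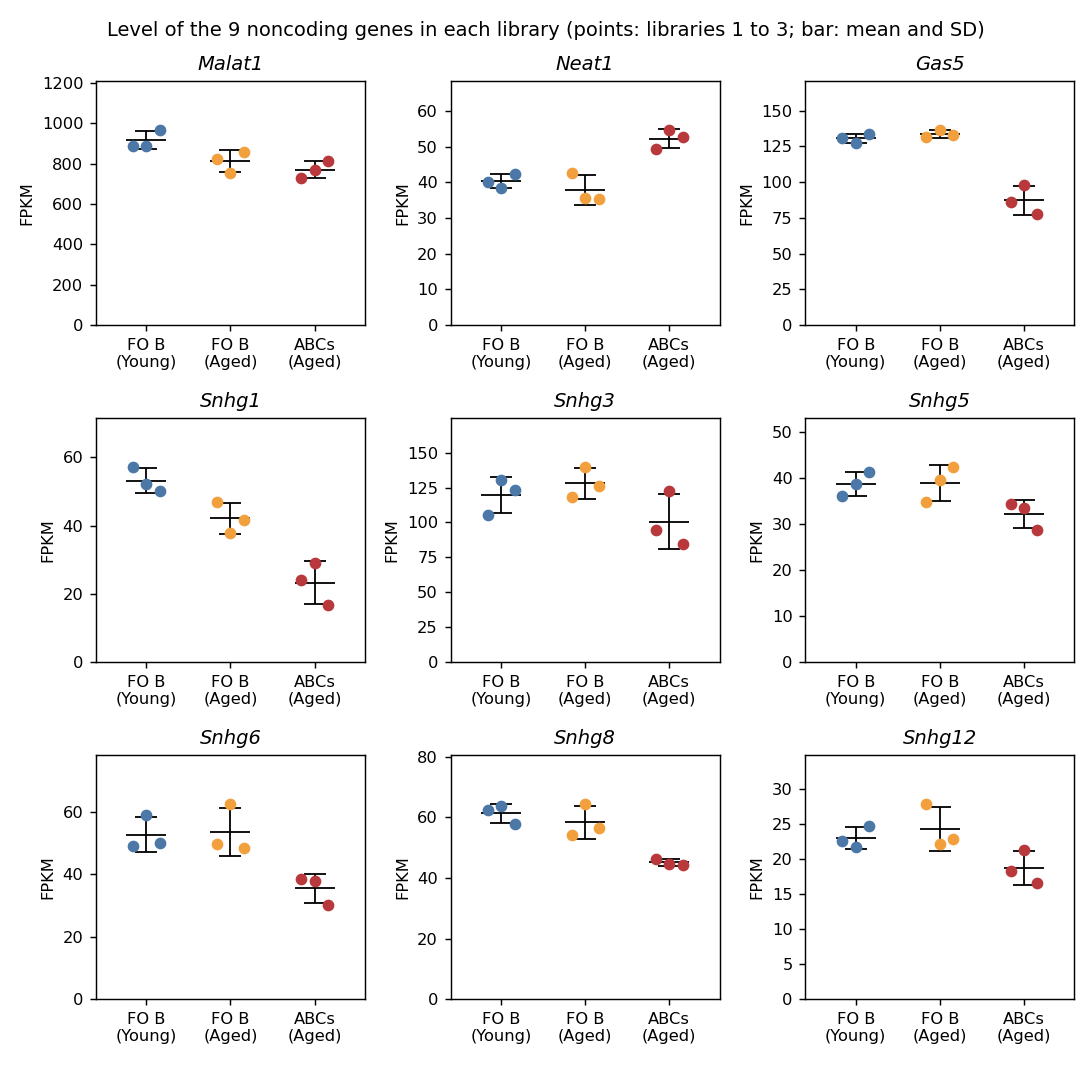
Each panel plots the FPKM of 1 gene (y axis, from 0) in the 3 libraries of FO B (Young), FO B (Aged) and ABCs (Aged), with points for libraries 1 to 3 from left to right and the bar for the mean and SD. The 3 ABC libraries of Gas5 lie between 77.7 and 97.9 FPKM, below all 6 FO B libraries, whereas those of Neat1 lie between 49.3 and 54.7, above all of them.

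The levels of CD23 and CD11c RNA went with the gates, whereas those of CD43 and CD21 differed between groups that were gated alike for them. Fcer2a, which encodes CD23, was at most 6.95 FPKM in ABCs and at least 697 in FO B cells, whereas Itgax, which encodes CD11c, was at least 45.0 in ABCs and at most 0.206 in FO B cells. Spn, which encodes CD43, was at 54.1 to 86.7 FPKM in ABCs and at 2.75 to 3.32 in FO B (Aged), with a log2 fold change of 4.06 and an FDR of 1.3e-05 in limma, although both gates took cells without CD43. Cr2, which encodes CD21, was at 0.745 to 8.39 FPKM in ABCs and at 127 to 166 in FO B (Aged), although both gates took cells with little CD21. Its log2 fold change was -5.04 with an FDR of 0.000636 in limma. Surface protein was not measured by these libraries. The libraries held about 7.7e+06 to 9.4e+06 mapped reads, estimated from the step of 1 read in 875 long genes, and 10032 to 10445 genes at 1 FPKM or more. ABC library 3 stood apart from the other 2 ABC libraries: its Pearson correlation with FO B libraries over genes was 0.878 to 0.890, against 0.909 to 0.925 for ABC libraries 1 and 2, and the summed FPKM of 5 B lineage markers was 6495 there and between 8036 and 8743 in the other 8 libraries. Of 7 T cell markers 6 stayed below 1 FPKM in every ABC library, and their sum, 5.09 to 38.3 in ABCs and at most 1.05 in FO B cells, was nearly all Cd3g. Of 7 macrophage and monocyte markers 4 stayed below 1 FPKM in ABCs, among them Csf1r, and the sum of 194 to 238 in ABCs, against at most 25.7 in FO B cells, was mostly Adgre1. The sum of 5 plasma cell markers was 191 to 225 in ABCs and 110 to 148 in FO B cells, mostly Xbp1. Mean Xbp1 was 134 FPKM in ABCs, 114 in FO B (Aged) and 91.2 in FO B (Young). Sdc1, Prdm1 and Jchain also had higher means in ABCs, whereas Irf4 had a lower one, at 15.6 against 17.3 and 20.8. The sum of 5 NK cell markers was 24.4 to 38.0 in ABCs and 0.642 to 1.99 in FO B cells, mostly Prf1, with Ncr1 at 0.0882 or less. The part of other cells in the results below was not tested. In bulk RNA, fewer cells of a type and less RNA per cell cannot be told apart.

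The first comparison set ABCs against FO B cells of the same age, which separates cell type from age. In ABCs, Neat1 was higher and 4 of 7 snoRNA host genes, Gas5, Snhg1, Snhg6 and Snhg8, were lower at an FDR under 0.05 (limma, Benjamini-Hochberg adjustment over 10412 genes). Malat1, Snhg3, Snhg5 and Snhg12 were not called. Among all genes tested 19.4% were called higher and 16.5% lower, so 1 of 9 and 4 of 9 are to be read against those shares. Every ABC library lay above every aged FO B library for 1 gene, Neat1, and below for 6, namely Gas5, Snhg1, Snhg5, Snhg6, Snhg8 and Snhg12, where 26.3% of all genes lay entirely above and 26.3% entirely below. The median log2 fold change of the 7 host genes was -0.36, and that of all genes -0.01. None of the 9 genes passed an absolute log2 fold change of 2.3 with an FDR under 0.01, the study's thresholds, which 200 of all 10412 genes passed. The labels do not say whether an FO B and an ABC library came from 1 aged mouse.

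**Figure D2:**
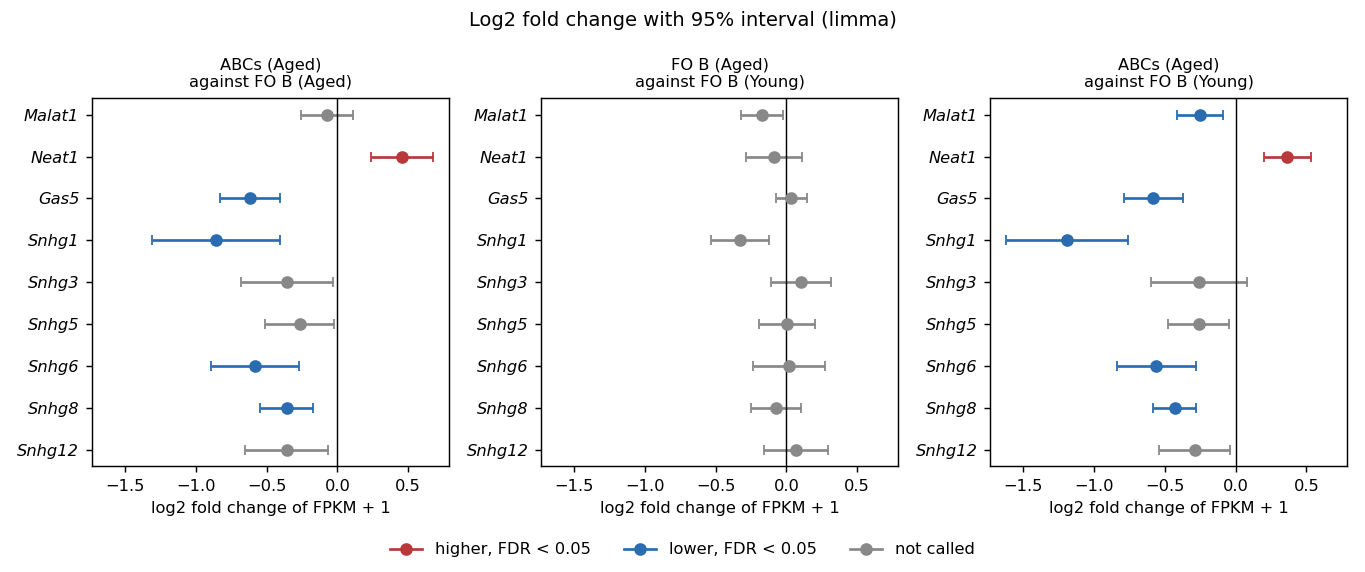
Log2 fold change of FPKM + 1 (x axis) for the 9 genes in the 3 comparisons, with the 95% interval of the limma fit. Red marks genes higher and blue genes lower at an FDR under 0.05, and grey marks genes not called. Neat1 lies to the right of 0 and Gas5, Snhg1, Snhg6 and Snhg8 to the left in both comparisons with ABCs, and no gene is called between the FO B groups.

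Neat1 lies at chr19:5824708-5845478 on the minus strand, with 4 annotated transcripts between 711 and 20771 bases. A short polyadenylated and a long form are known, and a value per gene does not separate them. The cDNA was oligo-dT primed, so the value need not reflect the long form. Neat1 was at 42.7, 35.5 and 35.4 FPKM in the 3 FO B (Aged) libraries and at 49.3, 54.7 and 52.7 in the 3 ABC libraries. All ABC libraries were above all aged FO B libraries. The mean was 1.38-fold higher in ABCs, with a log2 fold change of 0.46 ± 0.09 (SE) and an FDR of 0.00847 in limma. The exact two-sided permutation test of the means gave p = 0.1, the smallest that 3 against 3 libraries allow. The call held in all 17 alternatives, in which the FDR ranged from 0.00214 to 0.0369.

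Malat1 lies 22035 bases from Neat1 on the same chromosome and strand, at chr19:5795690-5802672. It was at 822, 753 and 860 FPKM in FO B (Aged) and at 729, 768 and 813 in ABCs. The groups overlapped, and the log2 fold change was -0.07 with a 95% interval from -0.26 to 0.11 and an FDR of 0.484 in limma. The ratio of Malat1 to Neat1 FPKM was 19.3, 21.2 and 24.3 in FO B (Aged) and 14.8, 14.0 and 15.4 in ABCs. It did not overlap between these groups, with means of 21.6 ± 2.54 and 14.8 ± 0.697 (SD, n = 3; exact two-sided permutation p = 0.1). In FO B (Young) it was 22.7 ± 0.516 and overlapped that of FO B (Aged), with an exact permutation p of 0.6. A ratio within a library shows unequal change of the 2 genes and does not depend on the scaling between libraries.

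Gas5, at chr1:161034422-161038539 on the plus strand, has 25 annotated transcripts with up to 12 exons. It was at 132, 137 and 133 FPKM in FO B (Aged) and at 86.3, 97.9 and 77.7 in ABCs. The FO B libraries lay close together, and all ABC libraries were below them. The mean decreased by 34.8%, that is 1.53-fold, in ABCs, with a log2 fold change of -0.62 ± 0.09 (SE) and an FDR of 0.00214 in limma, the lowest FDR of the 9 genes (exact permutation p = 0.1). In GENCODE, Gas5 has its start 427 bases from that of Zbtb37, a zinc finger gene on the other strand, and the annotated spans share 428 bases. The RefSeq start in the Gas5 window shown above lies 744 bases downstream of the GENCODE start, beyond the shared stretch. The libraries do not mark strand, so reads in the shared stretch cannot be told apart. Zbtb37 was at 4.50 ± 1.09 FPKM in ABCs and 6.63 ± 2.08 in FO B (Aged), with a log2 fold change of -0.46 and an FDR of 0.172 in limma, and its values were a small part of those of Gas5.

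Snhg1, at chr19:8723475-8726443 on the plus strand, had the widest difference. It was at 46.9, 37.8 and 41.6 FPKM in FO B (Aged) and at 24.2, 29.0 and 16.6 in ABCs. The mean was 1.81-fold lower in ABCs, with a log2 fold change of -0.86 ± 0.19 (SE) and an FDR of 0.0122 in limma (exact permutation p = 0.1). Its libraries did not overlap, but those of ABCs scattered more than for any other of the 9 genes, with a coefficient of variation of 26.9%. Snhg1 rests on about 40 reads or more per library if all came from its shortest transcript, for which counting alone gives 16%. The call was lost without FO B (Aged) library 1, where the log2 fold change was -0.78 and the FDR 0.0517, while without ABC library 3 it was -0.64 with an FDR of 0.00535.

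The start of Snhg1 lies 106 bases from that of Slc3a2, which runs the other way and encodes the heavy chain of the amino acid transporter CD98. Slc3a2 was at 55.5 ± 1.44 FPKM in FO B (Aged) and at 48.6 ± 5.04 in ABCs, with a log2 fold change of -0.19 and an FDR of 0.122 in limma. The 95% interval of Slc3a2, from -0.39 to 0.01, met that of Snhg1, from -1.31 to -0.41, nowhere, although the difference between the 2 genes was not itself tested. Snord22, inside Snhg1, was the only one of the 8 snoRNAs in the tables with a value above 0 in all 9 libraries. It was listed at 526, 346 and 1731 FPKM in FO B (Aged) and at 208, 283 and 207 in ABCs, so that all ABC libraries were below. Its FDR was 0.0561 in limma with a log2 fold change of -1.56, and FPKM of so short a gene are inflated, since few reads make a large value. Reads of Snord22 and of an unspliced Snhg1 RNA at the same place cannot be told apart.

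Snhg6, at chr1:9941959-9944118 on the minus strand, was at 49.7, 62.4 and 48.4 FPKM in FO B (Aged) and at 38.5, 37.7 and 30.1 in ABCs. All ABC libraries were below, with a mean 1.51-fold lower, a log2 fold change of -0.58 ± 0.13 (SE) and an FDR of 0.0134 in limma. It overlaps Mcmdc2 on the other strand by 127 bases, and Mcmdc2 was at 1.46 FPKM or less in every library. Snhg8, at chr3:123507552-123508404 on the minus strand, was at 54.2, 64.4 and 56.6 FPKM in FO B (Aged) and at 46.4, 44.7 and 44.4 in ABCs. Its ABC libraries had the smallest spread of the 9 genes, with a coefficient of variation of 2.39%. The mean of Snhg8 was 1.29-fold lower, with a log2 fold change of -0.36 ± 0.08 (SE) and an FDR of 0.0127 in limma. For both genes the exact permutation test gave p = 0.1.

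Snhg3, Snhg5 and Snhg12 also had lower means in ABCs but did not pass the test. Snhg12, at chr4:132308623-132311024, was at 27.9, 22.2 and 22.9 FPKM in FO B (Aged) and at 18.3, 21.4 and 16.6 in ABCs, without overlap, and had a log2 fold change of -0.36 (95% interval -0.65 to -0.06) and an FDR of 0.0608 in limma. Snhg5, at chr9:88521050-88522929, was at 34.7, 39.6 and 42.3 FPKM and at 34.4, 33.3 and 28.7, respectively. Its libraries were just separate, with a log2 fold change of -0.27 (95% interval -0.51 to -0.02) and an FDR of 0.0857 in limma. Snhg3, at chr4:132348014-132353686, was at 118, 140 and 126 FPKM and at 94.6, 123 and 84.6. ABC library 2 lay within the FO B range, and the log2 fold change of Snhg3 was -0.36 (95% interval -0.68 to -0.03) with an FDR of 0.0837 in limma. Without that library Snhg3 was called, with an FDR of 0.0111 and a log2 fold change of -0.51, and so was Snhg12, with 0.0367 and -0.45. Snhg3 shares 5592 bases and its strand with Rcc1, a chromatin-bound exchange factor for the GTPase Ran, so that reads of the 2 genes may have been split between them. Rcc1 was at 9.59 ± 1.48 FPKM in FO B (Aged) and 10.7 ± 2.18 in ABCs and was not called, with an FDR of 0.536 in limma.

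**Figure D3:**
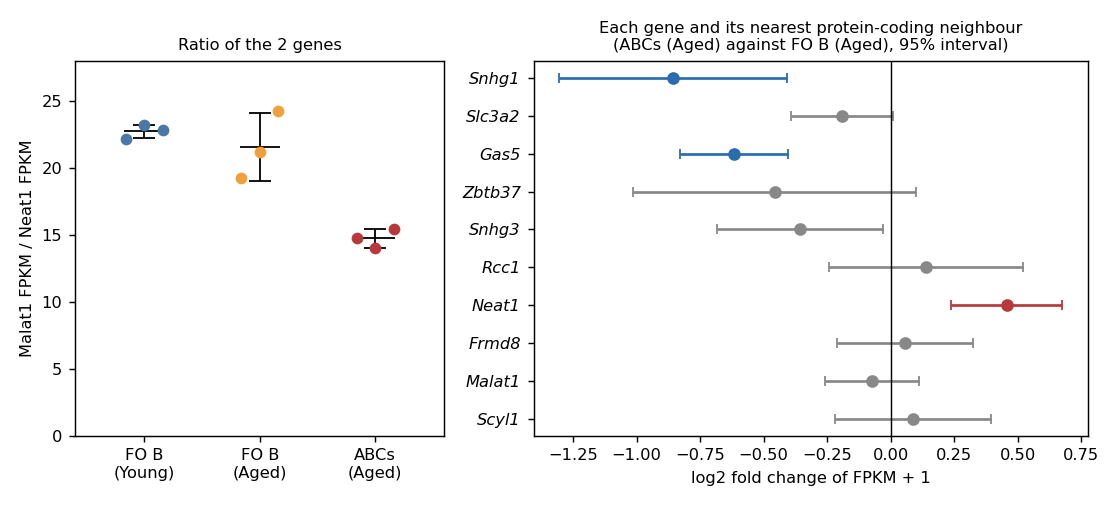
The left panel plots the ratio of Malat1 to Neat1 FPKM (y axis, from 0) in each library, with mean and SD. The right panel plots the log2 fold change with its 95% interval in ABCs (Aged) against FO B (Aged) for 5 of the noncoding genes, each above its nearest protein-coding neighbour. The ratio is lower in ABCs, at 14.0 to 15.4, and none of the 5 neighbours is called.

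The direction was shared among the host genes. All 7 had a negative log2 fold change, and their summed FPKM was between 299 and 387 in the ABC libraries and between 463 and 503 in FO B (Aged). ABC library 3 was the lowest of the 3 ABC libraries for 7 of 7 host genes, and it was also the library with the low B lineage sum. Without it, 4 host genes were still called lower and Neat1 higher in limma, where 1680 of all 10368 genes were called lower and 1963 higher. The calls depended on the scaling of the libraries. When FPKM were scaled to the upper quartile of each library, 0 of the 9 genes were called lower, the log2 fold changes of Gas5, Snhg1, Snhg6 and Snhg8 were -0.44, -0.68, -0.40 and -0.18, and the median of all genes moved from -0.01 to 0.15. Under that scaling 80.3% of the genes called were higher, and 54.0% without it. Of 10438 genes tested under it, 603 were called lower and 2459 higher, so 0 of 9 lower is to be read against that count.

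The second comparison, FO B cells of 50 against 8 weeks, addresses age within 1 cell type. None of the 9 genes was called in limma among 10122 genes, of which 0.346% were called higher and 0.119% lower. An unadjusted p under 0.05 in limma was found for 2 of the 9, Malat1 and Snhg1, where 1298 of all 10122 genes had one. These 2 genes were also those whose aged libraries all lay below the young ones, where 8.96% of all genes did so and 9.64% lay entirely above. Snhg1 was at 57.1, 52.1 and 50.1 FPKM in FO B (Young), and its mean decreased by 20.7% in FO B (Aged), with a log2 fold change of -0.33 ± 0.09 (SE) and an FDR of 0.174 in limma. Malat1 was at 889, 890.05 and 968 FPKM in FO B (Young), and its log2 fold change was -0.17 ± 0.07 (SE) with an FDR of 0.314. For Gas5, which was at 131, 127 and 134 FPKM in FO B (Young), the 95% interval of the log2 fold change ran from -0.08 to 0.15. Neat1 was at 40.1, 38.4 and 42.4 FPKM and overlapped the aged libraries, with an interval from -0.29 to 0.11.

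The other 5 host genes overlapped between young and aged FO B cells as well. In FO B (Young) their libraries ranged from 105 to 130.2 FPKM for Snhg3, from 36.1 to 41.3 for Snhg5, from 49.0 to 59.0 for Snhg6, from 57.8 to 63.6 for Snhg8 and from 21.8 to 24.8 for Snhg12. The log2 fold changes lay between -0.07 for Snhg8 and 0.10 for Snhg3. The directions of Gas5, Snhg3, Snhg5, Snhg6 and Snhg12 turned with the scaling of the libraries or with a library left out.

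ABCs were also set against young FO B cells, a comparison in which cell type and age both differ and which shares its libraries with the other 2. Neat1 was higher, with a log2 fold change of 0.37 and an FDR of 0.00637 in limma, and 5 genes were lower, where 21.6% of 10438 genes were called higher and 19.1% lower. The lower genes were Snhg1 (-1.19 on the log2 scale, FDR 0.00227, 2.28-fold), Gas5 (-0.58, FDR 0.00219), Snhg6 (-0.56, FDR 0.00874), Snhg8 (-0.43, FDR 0.00209) and Malat1 (-0.25, FDR 0.0253), all from limma. All libraries of ABCs lay above those of FO B (Young) for Neat1 and below for 7 genes, against 27.7% and 27.6% of all genes. Snhg3 was the gene whose libraries overlapped. The call of Malat1 was lost in 10 of 17 alternatives, with FDR up to 0.317, and without any 1 of FO B (Young) libraries 1, 2 and 3 or ABC libraries 1 and 2 its FDR in limma was between 0.0585 and 0.091. Without ABC library 2, Snhg3 and Snhg12 were called, with FDR of 0.0293 and 0.0254 and log2 fold changes of -0.41 and -0.38. Under upper quartile scaling 2 genes were called lower and 0 higher, and 66.6% of all genes called were higher, against 53.0% without it. Of 10454 genes tested under that scaling, 927 were called lower and 1847 higher.

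Other genes of the same pathways were described from lists, whose counts are to be read against the 16.5% of all genes called lower and the 19.4% called higher in ABCs against FO B (Aged). The list of other snoRNA host lncRNA genes included Mir22hg, which hosts a microRNA. Among the 13 genes of this list tested in ABCs against FO B (Aged), 4 were lower and 2, Mir22hg among them, higher in limma. The median log2 fold change of the list was -0.44. Snhg15, listed as Gm11974, was lower by -1.05 (FDR 0.000558), and Mir22hg, the host of miR-22, was higher by 1.06 (FDR 0.0105). Of 8 core proteins of snoRNPs, the particles that carry out the modification of ribosomal RNA, 4 were lower and 0 higher, with a median of -0.34. Gar1, a protein of the box H/ACA particle, had a log2 fold change of -1.0004 (FDR 0.00264 in limma), and Fbl, the methyltransferase fibrillarin of the box C/D particle, of -0.91 (FDR 0.00141). Of 12 genes of growth and 5′TOP translation control, 4 were lower and 0 higher, with a median of -0.22. Myc, the growth-promoting transcription factor, changed by -1.24 (FDR 0.000862 in limma) and Larp1, which binds 5′TOP RNAs, by -0.96 (FDR 0.00422). Among 10 genes of nonsense-mediated decay 1 was lower, Upf3b, with -0.33 (FDR 0.0181), and 9 were not called, with a median of -0.25.

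The protein genes of the nuclear bodies in which Neat1 and Malat1 RNA reside were counted likewise, against the same 16.5% lower and 19.4% higher over all genes. Of 8 paraspeckle protein genes 4 were lower in ABCs and 0 higher, with a median of -0.18, and Tardbp, which encodes the RNA-binding protein TDP-43, had -0.63 (FDR 0.00106 in limma). Of 10 nuclear speckle protein genes 3 were lower and 1, Srsf11, was higher, with a median of -0.15. The splicing factor genes Srsf2 and Srsf7 had -0.42 (FDR 0.00172 in limma) and -0.36 (FDR 0.00979). Among 13 other long noncoding genes tested, 3 were higher and 3 lower with a median of -0.08. Morrbid, listed as Gm14005 and known as a regulator of myeloid cell survival, was higher by 1.90 (FDR 0.00904), and Mir17hg, the host of the miR-17 cluster, was lower by -1.35 (FDR 0.000694). In FO B (Aged) against FO B (Young) 0 genes of these 7 lists were called in limma, with medians between -0.07 and 0.10. In that comparison only 0.346% of all genes were called higher and 0.119% lower.

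**Figure D4:**
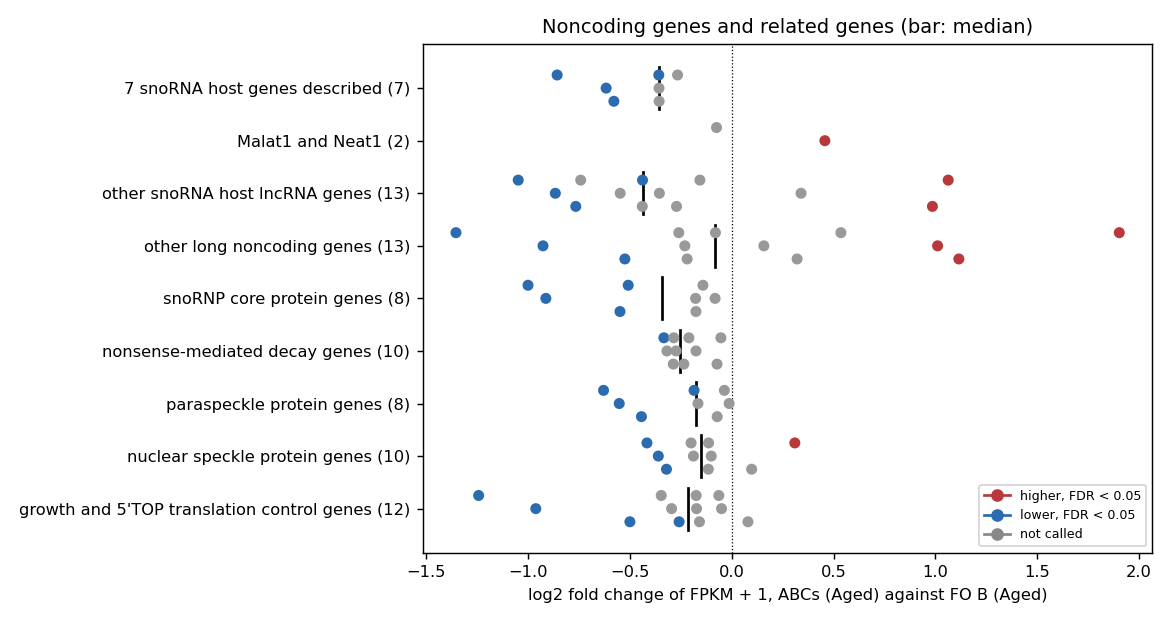
Log2 fold change of FPKM + 1 in ABCs (Aged) against FO B (Aged) (x axis) of the 7 host genes, of Malat1 and Neat1, and of the genes tested in each of 7 lists, whose number stands in brackets. Points are genes, red if higher and blue if lower at an FDR under 0.05 in limma and grey if not called. The bar is the median, which lies at -0.44 for the list of other snoRNA host genes and -0.34 for the snoRNP proteins. The list of other snoRNA host genes includes Mir22hg, a microRNA host.

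For the 5 genes called in ABCs against FO B (Aged), the 3 most like profiles were sought among the 6404 genes that averaged 10 FPKM or more, by the root-mean-square difference of centred log2 values over the 9 libraries. Gas5 was nearest to Gimap1, which encodes a GTPase of lymphocytes, with a difference of 0.0429, then to Crlf3 and Pcmtd2. Snhg8 was nearest to Cdc7, a kinase gene of DNA replication, with 0.0273, then to Add1 and Fam149b. Snhg6 was nearest to Casp2, Dtd1 and Crlf3, from 0.0778 to 0.102. Neat1 was nearest to Lactb, Cnih1 and Ube2g2, from 0.058 to 0.0761, and Snhg1 had the least close neighbours, Ift140, Lgals9 and Arhgap4, from 0.112 to 0.135. The 9 libraries share their groups, so these likenesses are a description.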

How the data were processed

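The 9 libraries were sorted splenic B cells of C57BL6 mice, with 3 per group taken from the sample titles. The authors amplified cDNA by SMART-Seq HT, prepared Nextera libraries from it (Nextera XT per the labels) and sequenced single ends. The submitters' processing notes list TopHat2 2.1.1, Bowtie2 2.2.8, SAMtools 0.1.18 and Cuffdiff 2.2.1 with mm10, whereas the paper's methods give other versions of TopHat, Bowtie2 and SAMtools, and the gene annotation is not given in the sources used here. The deposited values are FPKM per gene and library as made by the authors. No counts were used, because none were among the files. FPKM depend on the transcript models, so genes that share bases with another gene or have several forms, as Gas5, Snhg3 and Neat1 do, are uncertain in level.

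From FPKM, log2(FPKM + 1) was modelled in R 4.3.3 with limma 3.58.1, using lmFit and then eBayes with a trend, over genes that averaged 1 FPKM or more in the 6 libraries of both groups, and with no block. Fold changes on this scale understate those of low genes. Genes were called at a Benjamini-Hochberg FDR under 0.05 over all genes tested, with no fold threshold. Means were also compared by an exact two-sided permutation test in SciPy 1.17.1. The study describes the RNA-seq samples as 3 mice per group, so p-values measure the spread between mice as far as each library is 1 mouse, which the labels do not state. The depth of 7.7e+06 to 9.4e+06 reads per library is an estimate and covers counting error only.

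Alternatives were other pseudocounts, filters on low values, scalings, variance models, all 9 libraries in 1 fit, a replicate block, a stricter FDR and each library left out. The 9 genes and the gene lists were chosen with earlier results of these data known. Every noncoding gene is named, and of each list the 2 genes with the largest absolute log2 fold change among those called in ABCs (Aged) against FO B (Aged). One gene that this rule names is not reported here. Outside this rule Srsf11, Spn and Cr2 were named, Srsf11 and Cr2 after their values were seen. List symbols that the tables lacked were matched by RefSeq synonyms. The sequences are from RefSeq and GENCODE M21 on GRCm38, the build of mm10.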

Additional observations from a re-analysis of the deposited data

How the results depend on the processing

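Each log2 fold change was recomputed under 17 alternatives. Over the 9 genes and 3 comparisons, 415 values kept their direction and their side of the FDR of 0.05, 18 lost the call, 11 gained it and 15 changed sign. For the counts of genes called, 104 were within 1.5 times the reported count and 4 were not. Under upper quartile scaling, 0 genes were called lower in ABCs against FO B (Aged), in place of 4, and in ABCs against FO B (Young) 0 were called higher and 2 lower, in place of 1 and 5. Over all genes, that scaling called 603 of 10438 lower in ABCs against FO B (Aged). In ABCs against FO B (Young) it called 927 of 10454 lower and 1847 higher. At an FDR under 0.01, 1 gene, Gas5, was called lower and 1, Neat1, higher in ABCs against FO B (Aged). The share of all genes at that threshold was not counted. The cause of the loss under upper quartile scaling was not tested. Leaving out 1 library gave 3 to 6 genes lower and 1 higher in ABCs against FO B (Aged), 4 to 6 lower and 1 higher in ABCs against FO B (Young), and 0 of either between the FO B groups. Over all genes the counts moved as well. In ABCs against FO B (Aged), 1054 to 1680 of 10356 to 10437 genes were then called lower and 1496 to 1963 higher. Between the FO B groups 19 to 69 of 10114 to 10134 genes were called. A fit without 1 library leaves a group of 2, whose spread is pooled with that of the other group.

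The signs that changed belonged to genes that were not called. Under upper quartile scaling Malat1 was at 0.11 in ABCs against FO B (Aged), and in FO B (Aged) against FO B (Young) Gas5 was at -0.094, Snhg3 at -0.0294, Snhg5 at -0.122, Snhg6 at -0.109 and Snhg12 at -0.057, beside a median of all genes of -0.12. In the same comparison Snhg5 was at -0.00467 under scaling to TPM and -0.00101 after quantile normalization. With 1 library left out it ranged from -0.0578 to 0.0817 for Snhg5, from -0.0948 to 0.102 for Snhg6 and from -0.0304 to 0.129 for Snhg12.

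Whether the replicate numbers pair the libraries could not be settled. The deviations of same-numbered ABC and aged FO B libraries from their group means correlated at 0.0845, -0.019 and 0.108. Those of libraries with different numbers correlated at -0.108 to 0.0589. With 3 libraries per group, such values cannot show whether pairs exist. With the replicate number as a block, 1 gene was called higher and 5 lower in ABCs against FO B (Aged), Snhg3 being added with an FDR of 0.037 in limma, and 1 higher and 4 lower in ABCs against FO B (Young), where the FDR of Malat1 was 0.0515. The genes called in all were 3448, 37 and 3508 with the block and 3739, 47 and 4248 without it, in ABCs against FO B (Aged), FO B (Aged) against FO B (Young) and ABCs against FO B (Young). Between the FO B groups all genes called fell to 15 without the filter on low values and to 18 with all 9 libraries in 1 fit, and in ABCs against FO B (Young) to 2774 under upper quartile scaling. If all reads came from the shortest transcript of each gene, counting error would be largest for Snhg1, at 16%, and Snhg12, at 14%, in their lowest libraries; reads could not be assigned to transcripts.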

Other observations

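Of the other snoRNAs in the tables, Snora24 of Snhg8 was above 0 in 6 libraries, Snora44 of Snhg12 in 3 and Snora16a of Snhg12 in 2, whereas Snora61 and Snord99 of Snhg12 were listed at 0 in all. Among the other snoRNA host genes, Snhg18 was higher in ABCs than in FO B (Aged), with a log2 fold change of 0.99 and an FDR of 0.000847 in limma, while Snhg7, at -0.87 (FDR 0.00333), Snhg4, at -0.77 (FDR 0.0108), and Snhg17, at -0.44 (FDR 0.0322), were lower. These 4 genes were named after their values were seen. Among the other long noncoding genes, Pvt1, which lies beside Myc, was higher in ABCs by 1.01 (FDR 0.00105 in limma), while Myc was lower by -1.24, and Mir155hg, the host of miR-155, was higher by 1.11 (FDR 0.0232), both named after their values were seen.

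In ABCs against FO B (Young), 6 of 8 snoRNP core protein genes were lower in limma and 0 higher, and 4 of 10 nonsense-mediated decay genes were lower and 1 higher, where 19.1% of all genes were lower and 21.6% higher. That comparison shares its ABC libraries with the one against FO B (Aged).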
